A study of Mus musculus with 2 samples.

Results

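The V and J segments of the mouse T cell receptor alpha locus were taken as every gene of the GENCODE M21 annotation whose symbol starts with Trav or Traj. The rule found 188 of the 55450 annotated genes in the deposited gene tables, 128 Trav and 60 Traj genes. The annotation calls 108 of the Trav genes functional V segments and 20 V pseudogenes, and 51 of the Traj genes functional J segments and 9 J pseudogenes. All lie on the forward strand of chromosome 14 of the mm10 assembly, ahead of the constant gene Trac.

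A T cell builds the variable part of its alpha chain by joining a V segment to a J segment in its DNA, with the RAG enzymes cutting at both. The joined exon is transcribed and spliced to the exons of Trac, so the mature message holds V, J and constant sequence in that order. RNA from many T cells is therefore a mixture of messages with different V and J segments and the same constant region. Near-identical copies of the mouse V cluster carry the letters d and n in their gene names, and V genes with dv in the name can also be joined to delta chain segments.

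Regulatory T cells are CD4 T cells that hold other immune cells in check, and their polyA RNA was sequenced here. The primary cells came from 1 male mouse, an adult of 4 months, of the strain Foxp3CreERT2 x Rosa26YFP, in which the names denote a CreERT2 recombinase allele at Foxp3 and a YFP reporter at Rosa26. The labels trace the cells to a haematopoietic cell of the bone marrow and give no sort, gate or treatment. Library 1 and library 2 are technical replicates made from that 1 sample, so the values below are levels in 1 group, and any difference between library 1 and library 2 is technical.

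Library 1 had 15811985 estimated counts on annotated genes and library 2 had 16143717. All 7 genes on a list of regulatory T cell markers reached 1 TPM (a transcript level scaled for length and depth) in both libraries, with Foxp3, the defining transcription factor, at 43.2 TPM in library 1 and 36.2 TPM in library 2. Of the chains of the CD8 coreceptor, Cd8a had 2.18 TPM in library 1 and 1.82 TPM in library 2, and Cd8b1 had 10.8 and 14.3 TPM; the part of CD8 T cells in the segment levels was not tested. Cd79a, a B cell receptor component, had 0.85 and 1.63 TPM. In bulk RNA, fewer cells that use a segment and less RNA from each of those cells cannot be told apart.

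What a count means differs between V and J segments. In the deposited tables the effective length, the number of places where a read can start, equals the transcript length minus 49 for all 60830 features with 1 transcript longer than 49 bases, which corresponds to a 50-base read lying wholly inside the transcript. A functional Traj segment is 55 to 66 bases long and offers 6 to 17 start positions, whereas a functional Trav transcript offers 218 to 546. No annotated transcript joins a Trav to a Traj segment, and neither of the 2 Trac transcripts includes a Traj segment. A read across a V to J junction or a J to constant splice therefore matches no annotated transcript in full. In library 1 a single Traj count was worth between 4.73 and 10.1 TPM, and a single Trav count had a median worth of 0.253 TPM.

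The 10 Traj segments with the highest mean TPM are shown as whole annotated segments, because all Traj values below rest on reads inside these letters. Most J segments encode the Phe-Gly-X-Gly turn of the receptor, in which X is any residue, and some have tryptophan in place of phenylalanine. Capitals mark the codons of Phe-Gly-X-Gly or Trp-Gly-X-Gly, searched in every frame of the coding strand only. Sequences are the GENCODE M21 transcripts on mm10, forward strand, written 5′ to 3′.
Traj27, chr14:54192303-54192361: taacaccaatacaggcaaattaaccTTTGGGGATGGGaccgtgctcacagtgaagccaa
Traj18, chr14:54200777-54200842: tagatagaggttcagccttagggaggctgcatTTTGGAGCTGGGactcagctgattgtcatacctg
Traj21, chr14:54198790-54198846: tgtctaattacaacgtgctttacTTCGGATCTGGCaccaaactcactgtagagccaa
Traj9, chr14:54209393-54209450: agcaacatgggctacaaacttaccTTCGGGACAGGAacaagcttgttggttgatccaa
Traj23, chr14:54196081-54196140: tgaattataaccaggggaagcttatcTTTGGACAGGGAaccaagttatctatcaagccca
Traj34, chr14:54184699-54184756: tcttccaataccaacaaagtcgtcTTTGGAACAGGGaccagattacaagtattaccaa
Traj12, chr14:54206553-54206610: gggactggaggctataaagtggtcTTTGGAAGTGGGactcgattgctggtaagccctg
Traj33, chr14:54185358-54185414: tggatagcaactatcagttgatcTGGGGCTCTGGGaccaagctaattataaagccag
Traj49, chr14:54168686-54168747: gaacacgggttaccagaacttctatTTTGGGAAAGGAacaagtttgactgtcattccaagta
Traj15, chr14:54204422-54204481: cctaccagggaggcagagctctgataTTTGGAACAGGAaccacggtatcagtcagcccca

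Of the 60 Traj segments, 45 (75%) held a motif of either form, among them 44 of the 51 functional ones. Traj33 was 1 of 2 segments that matched only the tryptophan form. Among the last 60 bases of 141515 annotated transcripts, 0.948% held either form. A missing match says only that these letters are not in the segment: Traj20 and Traj19, which lack it, had means of 69.6 and 65.6 TPM.

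Traj segments together reached 2790 TPM in library 1 and 2962 TPM in library 2, a mean of 2876 ± 122 (SD, n = 2 technical libraries). These levels rest on few reads, 400 estimated counts in library 1 and 457 in library 2. The median segment had 37.9 TPM, and 47 of 60 had counts in both libraries, all of them functional. Since 1 Traj count was worth 4.73 TPM or more in library 1, these are also the 47 segments at 1 TPM or more in both libraries. The share of all genes at that level was 24.3%, which is no measure for segments so short. The level was spread widely, since 21 segments reached 50 TPM in both libraries and 5 reached 100.

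Traj27 was the highest J segment by mean level, with 25 counts and 201 TPM in library 1, and 24 counts and 184 TPM in library 2. Traj18 followed, with 29 counts and 137 TPM in library 1, and 46 counts and 208 TPM in library 2. Both segments stood near the top of both libraries, but their order was reversed between them. By counts alone Traj18 led in both, with 7.25% of Traj counts in library 1 (95% exact Clopper-Pearson interval 4.91 to 10.2%) and 10.1% in library 2 (7.46 to 13.2%). Traj27 had 6.25% (4.09 to 9.09%) and 5.25% (3.39 to 7.71%). Traj27 offers 10 start positions and Traj18 offers 17, and TPM is scaled by that number.

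Traj21 had 161 TPM in library 1 and 95.9 TPM in library 2. Traj9 had 125 and 128 TPM, and Traj23 had 102 and 139 TPM. Traj34 had 134 and 102 TPM, and Traj12 had 98.3 and 111 TPM. With 10 to 20 counts each, these neighbours in the order were not separated, and the exact Poisson intervals of the counts overlapped between the libraries in all 60 Traj segments. Traj33 had 80.4 TPM in library 1 and 105 TPM in library 2, Traj49 had 85.2 and 94.1 TPM, and Traj15 had 102 and 76.7 TPM. The 10 segments held 39.5% of Traj counts in library 1 (34.7 to 44.5%) and 38.7% in library 2 (34.2 to 43.4%), and each library's own 10 highest shared 8 segments.

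**Figure D1:**
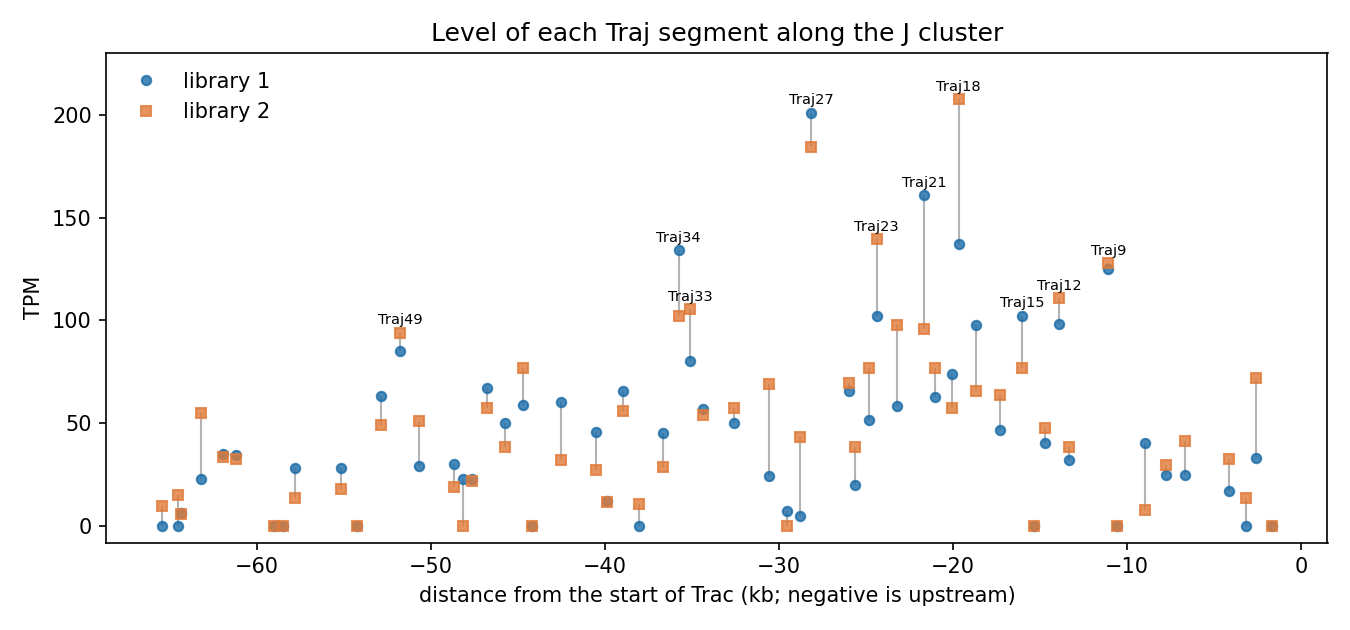
Level of each of the 60 Traj segments (TPM, vertical axis) against its distance from the start of Trac (kb, negative is upstream), with a circle for library 1, a square for library 2 and a grey line joining both. The 10 segments with the highest mean are named; Traj27 and Traj18 reach 201 and 208 TPM, and the pseudogenes Traj61 and Traj1 at the ends of the cluster are at 10 TPM or less.

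The J cluster runs from Traj61, 65.4 kb ahead of Trac, to Traj1, 1.68 kb ahead of it. Split along the locus into 6 blocks of 10 segments, the median level per block was 14.3, 42.2, 41.6, 59.0, 75.7 and 26.1 TPM. The block farthest from Trac thus had the lowest median, the block that holds Traj21 to Traj12 the highest, and the block nearest to Trac a lower one again. These blocks include pseudogenes and segments too short for a read, so they differ in make-up. The farthest block holds the pseudogenes Traj61, Traj60, Traj55 and Traj54, and the nearest holds Traj8 and Traj1, which offer no start position. The summed level was likewise lowest in the farthest block, at 156 TPM in library 1 and 184 TPM in library 2. It was highest in the block of Traj21 to Traj12, at 820 and 803 TPM, and was 297 and 363 TPM for the block nearest to Trac. Across the 60 segments, mean TPM and order along the locus had a Spearman rho of 0.25, given as a description of sites that share both libraries. Over the 51 functional segments, all of which offer start positions, it was 0.26. Number of start positions and counts had a rho of 0.23 across the 60 segments, 4 of which offer none. Over the 51 functional segments that rho was 0.04.

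Traj61, a pseudogene at the far end, had 0 counts in library 1 and 3 in library 2. Traj1, a pseudogene at the near end, is 29 bases long, offers no start position for a 50-base read and could not be measured. Traj2, the functional segment nearest to Trac, had 7 counts and 33.1 TPM in library 1, and 16 counts and 72.2 TPM in library 2. In all, 7 Traj segments had no count in either library, of which 6 were pseudogenes and 4 offered no start position. The other was Traj41, annotated as functional, which is shown here because it has no motif match and only 6 start positions, the fewest among functional segments.
Traj41, chr14:54176271-54176325: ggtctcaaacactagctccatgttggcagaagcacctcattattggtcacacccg

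The 9 J pseudogenes had 0 of 400 Traj counts in library 1, which allows a share of up to 0.918% by the exact interval, and 1.31% of Traj counts in library 2 (0.483 to 2.84%). The 51 functional segments held the rest, and 47 of them had counts in both libraries. Traj counts were therefore spread over nearly the whole functional set, with no segment above 10.1% of the counts. Reads inside a segment do not show whether it was joined, and shares of counts are not scaled for start positions. How often each J was used was not tested.

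Trav genes together reached 1642 TPM in library 1 and 1770 TPM in library 2, a mean of 1706 ± 90.4 (SD, n = 2). They had 6875 estimated counts in library 1 and 7704 in library 2. The median gene had 8.63 TPM, and 100 of 128 reached 1 TPM in both libraries, where 24.3% of all genes did. Among the 108 functional V genes 97 did so, and among the 20 V pseudogenes 3 did. Pseudogenes held 0.698% of Trav counts in library 1 (0.515 to 0.925%) and 0.678% in library 2 (0.505 to 0.884%).

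The last 60 bases of the 10 Trav genes with the highest mean level are shown because a V segment ends at the conserved cysteine that borders the junction with J. Capitals mark TANNNNTGT, a tyrosine codon start, 1 codon and the cysteine codon TGT, searched on the coding strand only. It was found in the last 60 bases of 110 of the 128 Trav genes (85.9%) and of 8.44% of all annotated transcripts. The other cysteine codon, TGC, was not searched, so a missing match does not show that the cysteine is absent. Trav3-3, without capitals, has no match but reads tacttctgc, which ends in TGC.
Trav7d-2, chr14:52683964-52684472: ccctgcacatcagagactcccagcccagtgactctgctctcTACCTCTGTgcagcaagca
Trav7-4, chr14:53461099-53461738: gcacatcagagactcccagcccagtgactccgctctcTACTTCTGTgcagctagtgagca
Trav3-3, chr14:53665929-53666506: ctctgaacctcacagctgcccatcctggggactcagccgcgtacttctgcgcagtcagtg
Trav12n-3, chr14:53240745-53241244: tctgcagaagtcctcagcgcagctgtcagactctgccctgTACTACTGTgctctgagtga
Trav4-4-dv10, chr14:53683647-53684177: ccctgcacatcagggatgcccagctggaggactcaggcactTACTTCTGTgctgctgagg
Trav14-2, chr14:53640701-53641225: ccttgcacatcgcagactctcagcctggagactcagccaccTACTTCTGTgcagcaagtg
Trav9-1, chr14:53488045-53488567: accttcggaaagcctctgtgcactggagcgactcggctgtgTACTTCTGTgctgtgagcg
Trav14n-3, chr14:53370077-53370575: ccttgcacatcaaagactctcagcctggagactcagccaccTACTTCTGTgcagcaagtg
Trav14-3, chr14:53763173-53763694: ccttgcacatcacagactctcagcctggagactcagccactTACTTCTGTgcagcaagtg
Trav5-4, chr14:53704007-53704514: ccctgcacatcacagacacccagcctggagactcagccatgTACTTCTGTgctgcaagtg

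Copies of V genes limit what a single gene's value means. Of the 128 Trav genes, 40 had no 50-base window that is absent from all other annotated genes, 75 had under 50% of their windows unique, and 10 had all of them unique. The annotated transcripts of 34 Trav genes form 17 pairs of fully identical sequence. All 56 Traj segments of 50 bases or more were unique throughout. All 60 Traj genes had whole-number counts in both libraries (within 0.005), and 26 of the 128 Trav genes did, the other values being fractional estimates.

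Trav values were therefore summed by subgroup, the number after Trav, with d and n copies pooled, which gave 23 subgroups. Trav7 was the largest, with 1174 counts in library 1 and 1386 in library 2. That was 17.1% of Trav counts in library 1 (16.2 to 18.0%) and 18.0% in library 2 (17.1 to 18.9%). Trav14 followed with 1107 counts, 16.1% (15.2 to 17.0%), in library 1 and 1297 counts, 16.8% (16.0 to 17.7%), in library 2. The intervals of Trav7 and Trav14 overlapped in each library, so their order was not separated. Their order changed in the second deposited count table described below, which lacks Trav7d-2 and other Trav7 genes.

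Trav12 had 10.7% of Trav counts in library 1 and 10.3% in library 2, and Trav6 had 9.91% and 9.99%. Trav9 had 8.57% and 7.87%, Trav3 had 7.07% and 7.27%, and Trav4 had 6.84% and 7.01%. Trav13 had 6.57% and 6.39%, Trav5 had 3.64% and 3.40%, and Trav16 had 2.57% and 2.36%. These 10 subgroups were the 10 largest in both libraries and held 89.0% of Trav counts in library 1 and 89.4% in library 2. The exact intervals of the share overlapped between the libraries in all 23 subgroups.

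**Figure D2:**
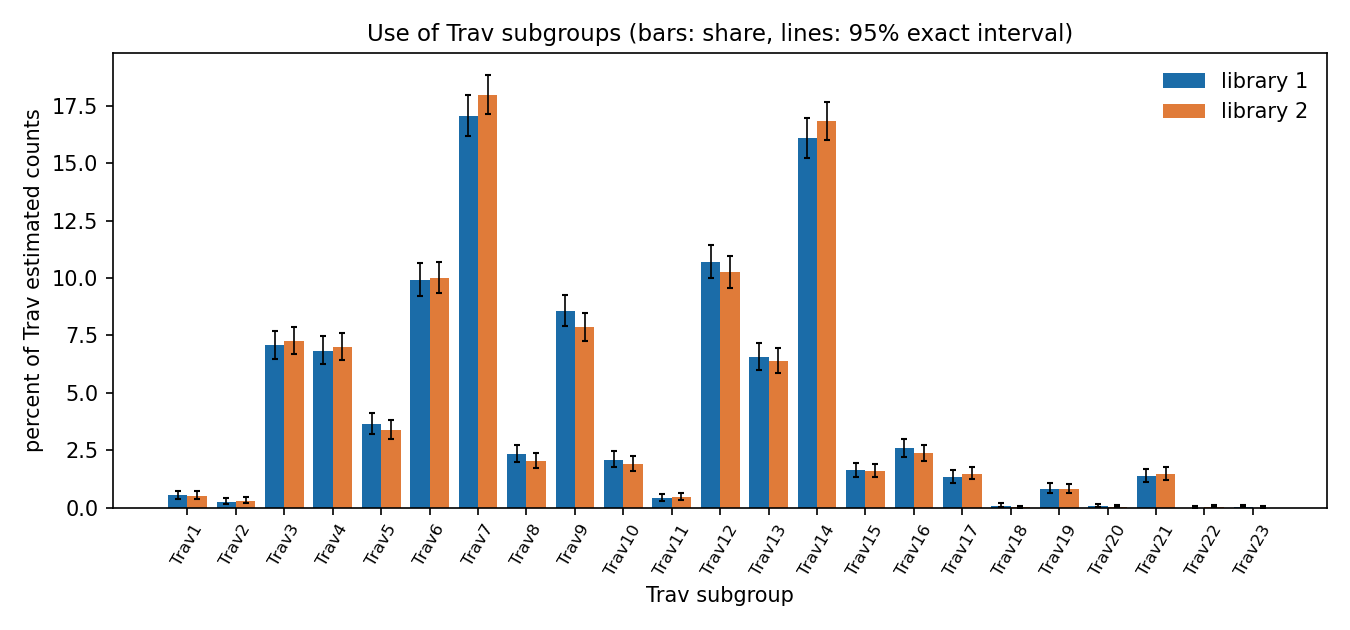
Share of Trav estimated counts (percent, vertical axis) in each of the 23 Trav subgroups, library 1 on the left and library 2 on the right of each pair; bars are shares and lines are 95% exact intervals, which cover counting error only. Trav7 and Trav14 are the tallest pairs, at 16.1 to 18.0%, and the intervals of both libraries overlap in each subgroup.

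The subgroups also differ in their number of genes. Trav7 has 13 genes and Trav6 has 15, and per gene the highest mean level was that of Trav14, at 29.4 TPM over 9 genes. It was followed by Trav17 at 27.5 TPM and Trav21 at 26.0 TPM, which have 1 gene each. Trav17 had 91 counts in library 1 and 114 in library 2. Trav21-dv12, the only Trav21 gene, had 94 and 112. The mean of Trav7 was 22.8 TPM per gene and that of Trav6 was 12.3 TPM. At the other end, Trav18 had 6 counts in library 1 and 1 in library 2, Trav23 had 3 and 0, and the pseudogene Trav22 had 0 and 2.

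Plain-named genes held 53.8% of Trav counts in library 1 (52.6 to 55.0%) and 52.2% in library 2 (51.1 to 53.3%). The d copies held 24.1% (23.1 to 25.2%) and 25.9% (24.9 to 26.9%), and the n copies held 22.1% and 21.9%. The median gene had 12.1 TPM among the 55 plain names, 5.57 TPM among the 39 d copies and 6.92 TPM among the 34 n copies. Reads of identical or nearly identical genes are divided by the estimation, so the split between such copies is less certain than their sum. That holds for d and n copies and also for plain and d names, such as the identical Trav6-6 and Trav6d-6. The shares, their intervals and the medians above carry this limit. Trav14d-1 and Trav14n-1, an identical pair, were each given 130 counts in library 1 and 147 in library 2.

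Among single genes, Trav7d-2 had the highest mean, with 54.8 TPM in library 1 and 86.8 TPM in library 2. Trav7-4 had 71.8 TPM in library 1 and 62.5 TPM in library 2. The order of these genes thus changed between libraries, and only 0.347% of the windows of Trav7d-2 and 24.9% of those of Trav7-4 were unique. Trav3-3 had 45.4 and 49.7 TPM, and Trav12n-3 had 43.5 and 48.6 TPM. Trav4-4-dv10, which can also serve a delta chain, had 38.9 TPM in library 1 and 48.2 TPM in library 2.

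Trav14-2 had 41.2 TPM in library 1 and 44.7 TPM in library 2, and Trav9-1 had 38.3 and 44.7 TPM. Trav14n-3 had 40.2 and 38.2 TPM, Trav14-3 had 34.4 and 41.8 TPM, and Trav5-4 had 40.2 and 35.9 TPM. For 9 of these 10 genes the step to the next gene in the order was smaller than the gap between the libraries, the exception being Trav7-4 (a step of 19.6 TPM and a gap of 9.21 TPM), and each library's own 10 highest genes shared 7. These 10 genes held 26.9% of Trav counts in library 1 (25.8 to 27.9%) and 27.7% in library 2 (26.7 to 28.7%). No Trav gene reached 100 TPM in both libraries and 2 reached 50.

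**Figure D3:**
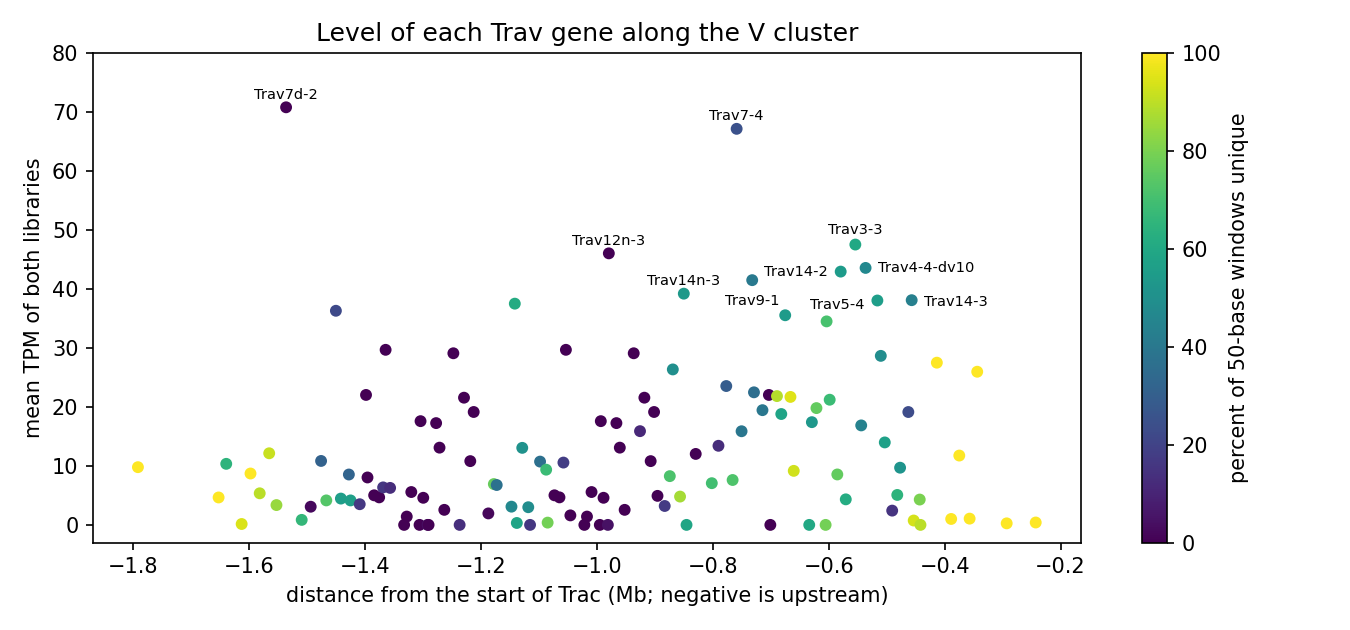
Mean TPM of both libraries for each of the 128 Trav genes (vertical axis) against distance from the start of Trac (Mb, negative is upstream), coloured by the percent of 50-base windows unique to the gene. The 10 highest genes are named; Trav7d-2 and Trav7-4 lie above the rest at 70.8 and 67.1 TPM, and both have few unique windows.

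The V cluster begins with Trav1, 1792 kb ahead of Trac, and ends with Trav23, 243 kb ahead. Across the 108 functional V genes, mean TPM and order along the locus had a Spearman rho of 0.33, so levels tended to be higher toward Trac, as a description of genes that share libraries, reads and copies. The 10 genes with dv in the name all reached 1 TPM in both libraries and summed to 717 counts in library 1 and 875 in library 2. Of 6 Trdv genes, which serve the delta chain, 2 reached 1 TPM in both libraries, Trdv1 with 13.4 and 8.52 TPM and Trdv2-2 with 13.5 and 9.57 TPM. All Trdv genes together had 29.3 TPM in library 1 and 20.8 TPM in library 2.

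The summed V and J levels can be set beside their constant gene. Trac had 2472 TPM in library 1 and 2588 TPM in library 2, so summed Trav over Trac was 0.664 in library 1 and 0.684 in library 2. Summed Traj over Trac was 1.13 and 1.14. In the beta chain, the partner of alpha, summed Trbv over the 2 Trbc genes was 0.541 and 0.539. Both alpha V ratios lay above both beta V ratios, and with 2 technical libraries this difference was not tested. Each V sum also leaves out genes that share windows with its members. Examples are C920008G01Rik, which shares windows with Trav7n-6, and 5830405F06Rik, which shares them with Trbv4 and Trbv5. The J ratio of the beta chain is not set beside that of alpha, since 8 of the 14 Trbj segments hold no 50-base window and could not be measured.

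**Figure D4:**
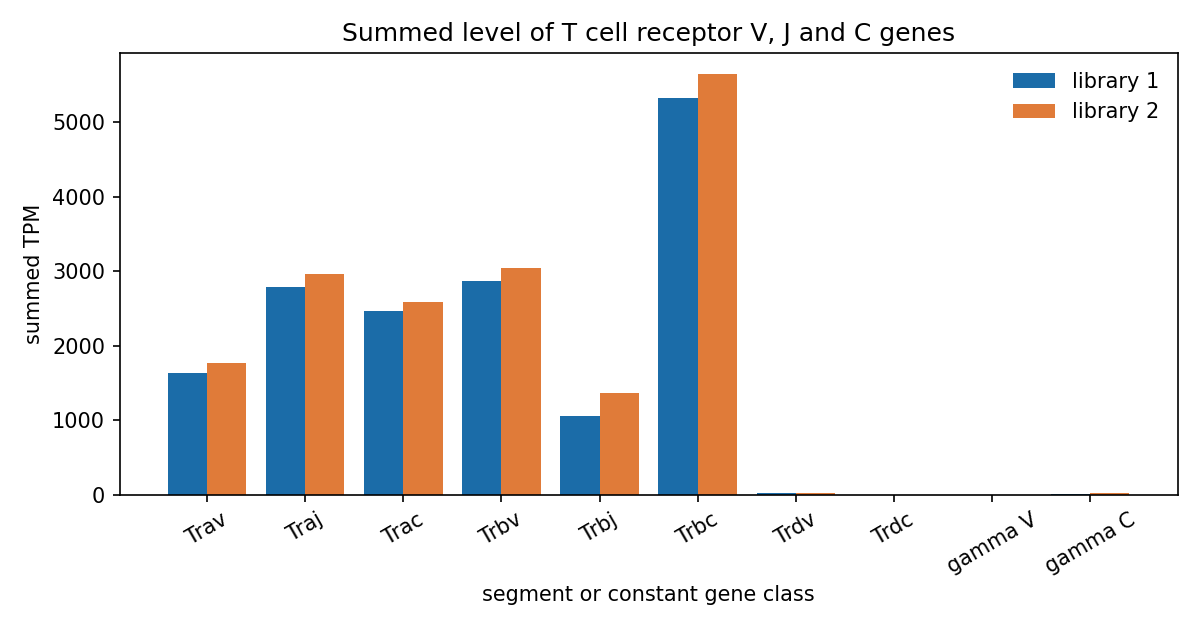
Summed TPM (vertical axis, from 0) of V, J and constant genes of the alpha, beta, delta and gamma chains, library 1 on the left and library 2 on the right of each pair. Traj stands above Trac and Trav below it, and Trbv stands below Trbc. The Trbj bar covers only the 6 segments of 14 that can hold a read; Trdv, Trdc and the gamma genes are close to 0 on this scale.

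Constant genes of the gamma delta receptor were low beside Trac. Trdc, the delta constant gene inside the alpha locus, had 3.21 TPM in library 1 and 2.72 TPM in library 2, and Trac exceeded it 770-fold and 951-fold. Tcrg-C1, a gamma constant gene, had 10.1 and 12.7 TPM, and Sox13, a factor of gamma delta T cells, had no count. Dad1, the housekeeping gene next to the locus on the far side of Trac, had 340 TPM in each library.

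RNA of the machinery of V to J joining was low for its lymphoid-specific parts. Of 11 recombination genes, 8 reached 1 TPM in both libraries. Rag1, a subunit of the cutting enzyme, had 0.01 TPM in library 1 and 0 in library 2, and its partner Rag2 had 0 and 0.20 TPM. Dntt, which adds bases at the junction, had 0.46 and 0.40 TPM. The general repair genes were higher, such as Xrcc6, a DNA end-binding protein, at 46.4 and 42.0 TPM. Between the libraries, 4 of 9 recombination genes tested were higher in library 1, where 13.3% of all genes tested were, and 1 was lower, where 11.8% were; nothing is read from so few genes.

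Some alpha chains are nearly invariant and mark particular T cells. Mouse invariant NKT cells join Trav11 to Traj18, and mucosal-associated invariant T cells join Trav1 to Traj33. Gene counts do not show which V was joined to which J, so each segment is described alone. The 3 Trav11 genes together had 28 counts in library 1 and 35 in library 2, 0.407% (0.271 to 0.588%) and 0.454% (0.317 to 0.631%) of Trav counts. The Traj18 share of Traj counts was 7.25% and 10.1%, as given above. Trav11 was thus a small V subgroup beside a J segment near the top of its class.

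Beside these values, Zbtb16, the defining factor of invariant NKT cells, had 0.03 TPM in library 1 and 0 in library 2. Klrb1a had no count, and Klrb1c, which encodes NK1.1, had 1.97 and 1.85 TPM. Cd1d1, the antigen-presenting molecule for these cells and widely made by other cells, had 98.7 TPM in each library. Trav1 had 37 counts and 9.24 TPM in library 1, and 40 counts and 10.3 TPM in library 2, all of its windows being unique. Traj33 had 8 counts in library 1 and 11 in library 2, 2.00% (0.867 to 3.90%) and 2.41% (1.21 to 4.27%) of Traj counts.

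Within the Trav11 group, the counts were given to Trav11d (25.2 in library 1 and 35 in library 2) and to the pseudogene Trav11n (2.8 and 0), and none to Trav11. The 3′ ends of Trav11 and Trav11d are shown because both genes are the same up to the end of Trav11d: the first 342 bases of Trav11 equal the whole Trav11d transcript, and a single base follows in Trav11. Capitals mark TANNNNTGT as before.
Trav11, chr14:53519303-53519859: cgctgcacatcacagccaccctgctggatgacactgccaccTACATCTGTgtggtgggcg
Trav11d, chr14:52824357-52824912: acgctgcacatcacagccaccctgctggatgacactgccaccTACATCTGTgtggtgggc

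Whether the segments were measured alike in both libraries was tested gene by gene with a two-sided exact binomial test of the rounded counts, with Benjamini-Hochberg adjustment over all 17447 genes that had a summed count of 10 or more. It compares libraries, not conditions, and its p-values allow for counting error only. Over all genes tested 25.1% passed an adjusted p of 0.05. Of 105 Trav genes tested 11 passed, 3 higher in library 1, where 13.3% of all genes were higher, and 8 lower in library 1, where 11.8% were lower. Of 35 Traj segments tested 0 passed and 1 had an unadjusted p under 0.05. The edgeR exact test with a common dispersion also called 0, and its share of all genes called is not given here. Among all genes with a summed count of at least 10 and under 700, a range nearer to that of Trav, 18.6% passed the binomial test. Among those with at least 10 and under 80, nearer to that of Traj, 15.9% passed. The median log2 ratio of library 1 over library 2 was -0.12 for Trav and -0.11 for Traj, against 0.00 for all genes tested.

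Of the Trav calls, 5 were genes with no count in 1 library, all with under 3% of windows unique. Trav7-2 had 85.9 counts in library 1 and 0 in library 2 (adjusted p = 1.6e-24, binomial test), while Trav7d-2 had 196 counts in library 1 and 326 in library 2. Their windows are shared almost entirely, and as a pair they had 282 counts in library 1 and 326 in library 2. The posterior mean counts deposited beside the estimates gave Trav7-2 116 ± 74.6 counts in library 1 and 68.4 ± 56.2 in library 2 (posterior SD). The sum of the pair by posterior means was 282 in library 1 and 326 in library 2.

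Trav7n-6, which has no unique window, was given 0 counts in library 1 and 42.6 in library 2. Its closest gene, C920008G01Rik, an annotated V segment whose symbol lacks Trav and so is no member, had 42.0 counts in library 1 and 17.1 in library 2. Trav6d-3 had 0 and 20.8 counts, and together with Trav6-3 the pair had 54.0 counts in library 1 and 75.0 in library 2. Trav13d-3 had 16.5 and 0 counts, and summed with Trav13-3 and Trav13n-3 the group had 35.0 counts in library 1 and 22.8 in library 2. It overlaps Gm30214 on the opposite strand, whose reads cannot be told apart from its own unless strand was used. Trav15n-1 had 12.1 and 0 counts, and with Trav15d-1-dv6d-1 the pair had 33.8 in library 1 and 37.7 in library 2.

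The other calls had counts in both libraries. Trav6n-6 had 23.6 counts in library 1 and 52.3 in library 2, a log2 ratio of -1.07 (adjusted p = 0.0112, binomial test). Trav10n had 25.7 and 55.3 counts (log2 ratio -1.04), Trav7n-4 had 34.0 and 63.8 (-0.87), and Trav7d-4 had 152 and 222 (-0.51). Trav7d-4 with its near-copy Trav7-4 summed to 510 counts in library 1 and 549 in library 2. Trav12-2, with 70.8% of windows unique, had 139 and 193 counts, a log2 ratio of -0.44 (adjusted p = 0.0282, binomial test). Among Trav genes with 50% or more of windows unique 3 of 40 tested were called, and among those with less 8 of 65 were.

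The spread between libraries was also described as a mean chi-square per degree of freedom, which is 1 when only counting error separates them. It was 1.00 over the 53 Traj segments with counts, against 2.88 over all genes with a summed count of at least 4 and under 80. It was 3.62 over Trav genes, 2.21 with posterior mean counts and 2.26 over Trav subgroups. Over all genes with a summed count of at least 80 and under 700 it was 4.87. That class is no close match, since its median summed count was 264, against 74.8 for Trav genes, and large subgroups lie above its range. Trav genes with 50% or more of windows unique had 1.76, and those with less had 5.02. Traj values thus differed between libraries about as much as their counting error, and the excess among Trav genes was larger where copies share windows.

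**Figure D5:**
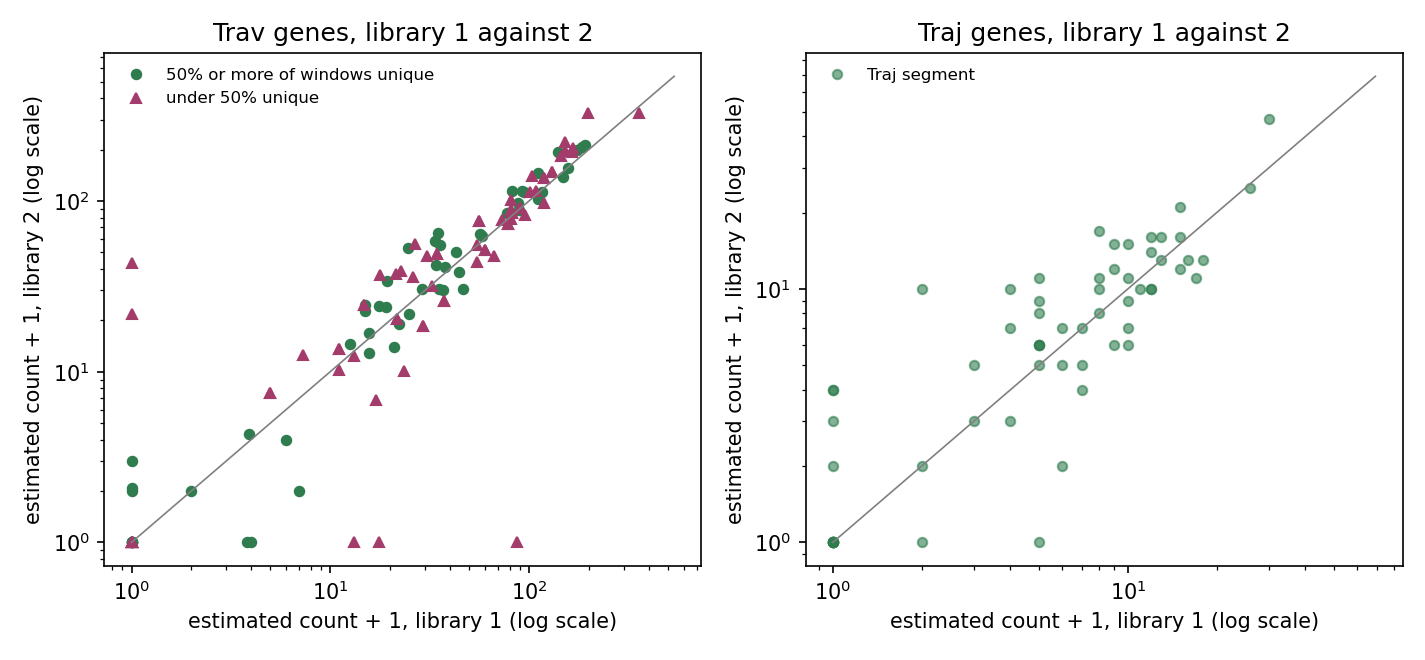
Estimated count plus 1 in library 1 (horizontal, log scale) against library 2 (vertical, log scale) for the 128 Trav genes, with circles for 50% or more of windows unique and triangles for fewer, and for the 60 Traj segments; the grey line marks equal counts. The 5 triangles on an axis far from the origin are Trav7-2, Trav7n-6, Trav6d-3, Trav13d-3 and Trav15n-1, each with 0 counts in 1 library.

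A second deposited count table, on the older GENCODE M4 annotation, holds 99 of the 128 Trav genes and none of the Traj genes. It holds 3746426 counts in library 1 and 3680387 in library 2, far fewer than the M21 table. Trac had 1117 and 1154 counts in it, against 24133 and 25900 in the M21 table. Trav17 and Trav1, whose windows are all unique, still had like counts in both tables. Trav17 had 100 counts in library 1 and 115 in library 2, against 91 and 114 in the M21 table. Trav1 had 33 and 40, against 37 and 40. Of the 31 Trav genes in that table that have no unique window, 28 had 0 counts in both libraries. Trav12n-3, the fourth highest V gene above, was at 0 in both libraries there. By this table Trav14 was the largest subgroup, with 17.3% of Trav counts in library 1 and 18.6% in library 2. The table lacks Trav7d-2, the highest V gene above, and also Trav7-1, Trav7-5, Trav7d-5, Trav7n-5 and Trav7n-6. With its lower counts, 0 of 62 Trav genes tested differed between the libraries, and the share of all genes called is not given here.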

How the data were processed

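The deposited gene tables carry the column names that RSEM writes, on mm10 with GENCODE M21, per the file headers and readme texts; the sources used here do not state the aligner, strand setting or software versions. The authors' expected counts (estimated counts per gene) are unscaled, and the deposited TPM values are scaled for length and depth. A deposited table on GENCODE M4 holds whole-number counts per gene; how it was counted, and how reads with several matches were treated, is not given in the sources used here.

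Genes were joined to GENCODE M21 by identifier. Trav and Traj genes were summed and ordered along the locus in Python 3.11.15. A 50-base window counted as unique where no other gene's transcripts hold it on the same strand. Libraries were compared with an exact binomial test on rounded counts, with TMM library sizes from edgeR 4.0.16, a summed count minimum of 10 and a prior count of 0.5; DESeq2 1.42.0 size factors were an alternative. The test was checked on simulated data with counting error only, so the check does not cover wider spread or counts divided among copies. SDs cover the spread between technical libraries. Binomial p-values and intervals allow for counting error only, while the common dispersion put the coefficient of variation beyond counting error at 13.0%.

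Named are the 10 largest Trav subgroups, the 10 highest Trav and Traj genes, the ends of the J cluster, the Trav genes past the library test (at most 10 with the largest ratio, Trav12-2 being the eleventh and named after its values were seen), the invariant-chain segments and the listed constant, delta, recombination, neighbour and marker genes. Genes named beside these (Traj41, Traj2, Traj19, Traj20, low subgroups and copy partners) were chosen after their values were seen. The members and lists were chosen with earlier results of these data known.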

Additional observations from a re-analysis of the deposited data

How the results depend on the processing

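The number of Trav genes at the threshold was 50 with M4 counts of 10 or more, against 100 by TPM, and leaving out a library gave 102 to 105. For Traj it was 12 with an expected count of 10 or more, against 47, and 49 to 51 without a library. Summed Trav was 1573 TPM by posterior means, against 1706, and 1642 to 1770 without a library. Summed Traj was 2790 to 2962 TPM without a library. The Trav7 share was 17.1 to 18.0% without a library. By M4 counts, which lack Trav7d-2 and other Trav7 genes, Trav14 led with 17.9%.

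Of 11 Trav genes that differed between libraries, the edgeR exact test with a common dispersion called 5, M4 counts 0 and genes with 50% or more of windows unique 3. The last of these, the posterior mean counts and the expected counts of functional Traj were chosen after seeing the data. Posterior mean counts called 8, of which 7 were among the 11. The shares of all genes called by edgeR, M4 counts and posterior means are not given here. Their counts are therefore not read as few or many. No Traj segment was called under any of the 7 alternatives run. Of these, the summed count of 50 or more left 1 segment to test, and the added 1.5-fold difference could only remove calls. The Traj order correlation was 0.44 among segments with a summed count of 10 or more and 0.18 with the expected counts of functional segments, against 0.25, and 0.20 to 0.28 without a library. The cause of these shifts was not tested.

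M4 alternatives could not be run for Traj, since that table holds none, and the library test needs both libraries. No paired analysis was possible because both libraries belong to the same group. With 400 and 457 Traj counts, single J segments are known only to wide counting intervals, 4.91 to 10.2% for Traj18 in library 1. Trav genes with shared windows are better read as subgroup sums.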
